A study of Mus musculus with 12 samples.

Results

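NT-iPSCs are pluripotent mouse cells reprogrammed in successive rounds, first by transcription factors, which gave induced pluripotent stem cells (iPSCs), and then by nuclear transfer (NT) from these cells. Their miRNAs were compared with those of embryonic stem cells (ESCs) of the line E14. The miRNAs considered were those with reads in at least 2 of the 5 libraries of these groups, 860 of the 1042 in the deposited table, and the choice used no difference between the groups. Reads were present in all 5 libraries for 679 of them. Just outside the limit lay 50 miRNAs with reads in 1 of the 5 libraries, with at most 6 reads in a library, and just inside it 65 with reads in exactly 2, with at most 50. A filter of at least 10 reads in at least 2 of all 12 libraries kept 729 of the 860 for testing. The other 131 had at most 17 reads in any of the 5 libraries and are described by their reads only. Adjustment for multiple testing ran over 732 miRNAs, because 3 others passed the same filter.

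The study sequenced small RNA of 12 libraries: 3 of mouse embryonic fibroblasts (MEFs), 3 of ESCs, and 2 each of iPSCs, NT-ESCs (lines made from a MEF nucleus moved into an oocyte) and NT-iPSCs. The 3 ESC libraries (2, 3 and 4) came from E14 cells of strain 129/ola, which had not been reprogrammed. The 2 NT-iPSC libraries (51 and 52) came from cells on a C57B6/129SvJae F1 background, as did the MEF, iPSC and NT-ESC libraries, and the iPSC behind them had been made from MEFs with a dox-inducible lentivirus carrying Oct4, Sox2, Klf4 and c-Myc. Libraries of a group were batches of RNA from 1 cell line, so n counts RNA batches and p-values measure the spread between such batches only. Cell type, strain, line and library cannot be told apart in these groups.

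Each deposited value is a variance stabilized (VST) level on a log2 scale, made by the authors from normalized miRNA reads. The reads were recovered from it as whole numbers, 4863365 to 7499416 per library in the 5 libraries, where 3 reads stand for 0.400 to 0.617 CPM, reads scaled to a common library total. The spread between libraries of a group exceeded that of read sampling: chi-square divided by its degrees of freedom was 46.4 to 166 among the ESC pairs and 283 between the NT-iPSC libraries. Differences are given as mean VST in NT-iPSCs minus mean VST in ESCs, and at low reads they fall short of the log2 fold change. Other scalings of the libraries moved the differences of all miRNAs together, by 0.24 upward with upper quartile scaling and by 0.20 and 0.13 downward with TMM-type scaling and with total reads.

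NT-iPSC libraries stood apart from ESC libraries in the ratio of the arms of a hairpin, at more hairpins than MEF libraries did. A hairpin yields a 5p and a 3p arm, and the VST of the 5p arm minus that of the 3p arm, the arm balance, differed between NT-iPSCs and ESCs at 193 of 263 hairpins. It differed between MEFs and ESCs at 62 and between NT-iPSCs and iPSCs at 0 of the same 263. Arms of 1 hairpin can therefore differ in opposite directions, and levels are given by arm throughout. No label names a library kit, run or date, and library preparation cannot be told apart from reprogramming in these groups. Reads per library were 4863365 to 5771398 in ESCs, 5293867 to 7567263 in the reprogrammed types and 7867514 to 8608689 in MEFs.

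A miRNA is a short RNA that guides Argonaute proteins to messenger RNAs, mostly by pairing through its seed, bases 2 to 8, and lowers their output. Mouse ESCs are known for miRNAs with the seed AAGUGCU, made from the miR-290 and miR-302 clusters, which shorten the G1 phase of the cell cycle. The let-7 family acts in the opposite sense: its maturation is blocked by Lin28 in pluripotent cells and it accumulates on differentiation. The miR-17 type clusters, which exist as 3 copies in the genome, promote proliferation.

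The sequences below are those that the first results turn on, from RefSeq for GRCm38.p6, with the seed in capitals. Of the 860 miRNAs, 682 had a sequence there. The first 6 share the seed AAAGUGC, the next 3 the seed AUUGCAC and come from the same 3 clusters, the next 3 carry the ESC seed AAGUGCU, and the last 3 are of the let-7 family.
miR-17-5p: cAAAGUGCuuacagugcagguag
miR-20a-5p: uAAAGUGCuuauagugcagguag
miR-106a-5p: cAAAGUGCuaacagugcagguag
miR-20b-5p: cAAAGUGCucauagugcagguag
miR-106b-5p: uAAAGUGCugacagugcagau
miR-93-5p: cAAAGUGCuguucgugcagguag
miR-92a-3p: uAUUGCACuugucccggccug
miR-363-3p: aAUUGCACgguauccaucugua
miR-25-3p: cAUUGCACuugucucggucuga
miR-291a-3p: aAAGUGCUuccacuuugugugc
miR-294-3p: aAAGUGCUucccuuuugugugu
miR-295-3p: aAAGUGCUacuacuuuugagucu
let-7a-5p: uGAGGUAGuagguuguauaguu
let-7f-5p: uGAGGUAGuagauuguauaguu
let-7i-5p: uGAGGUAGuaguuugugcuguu

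Most miRNAs differed between NT-iPSCs and ESCs, and in both directions. Of the 732 tested, 568 passed an adjusted p of 0.05 (77.6%), of which 301 (41.1%) were higher and 267 (36.5%) lower in NT-iPSCs (limma on the VST values, Benjamini-Hochberg). The median absolute difference was 2.01 and the median difference 0.12, and single differences ran from -8.65 to 7.66. The libraries of the groups did not overlap for 634 miRNAs (86.6%), and 512 (69.9%) passed with a difference of at least 1. Against this background many called members in a list are what the rest of the table also shows, so lists are described by direction and size, and no list was tested as a set. The split between higher and lower moved with the scaling, to 319 and 239 with upper quartile scaling and 280 and 288 with TMM-type scaling.

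**Figure D1:**
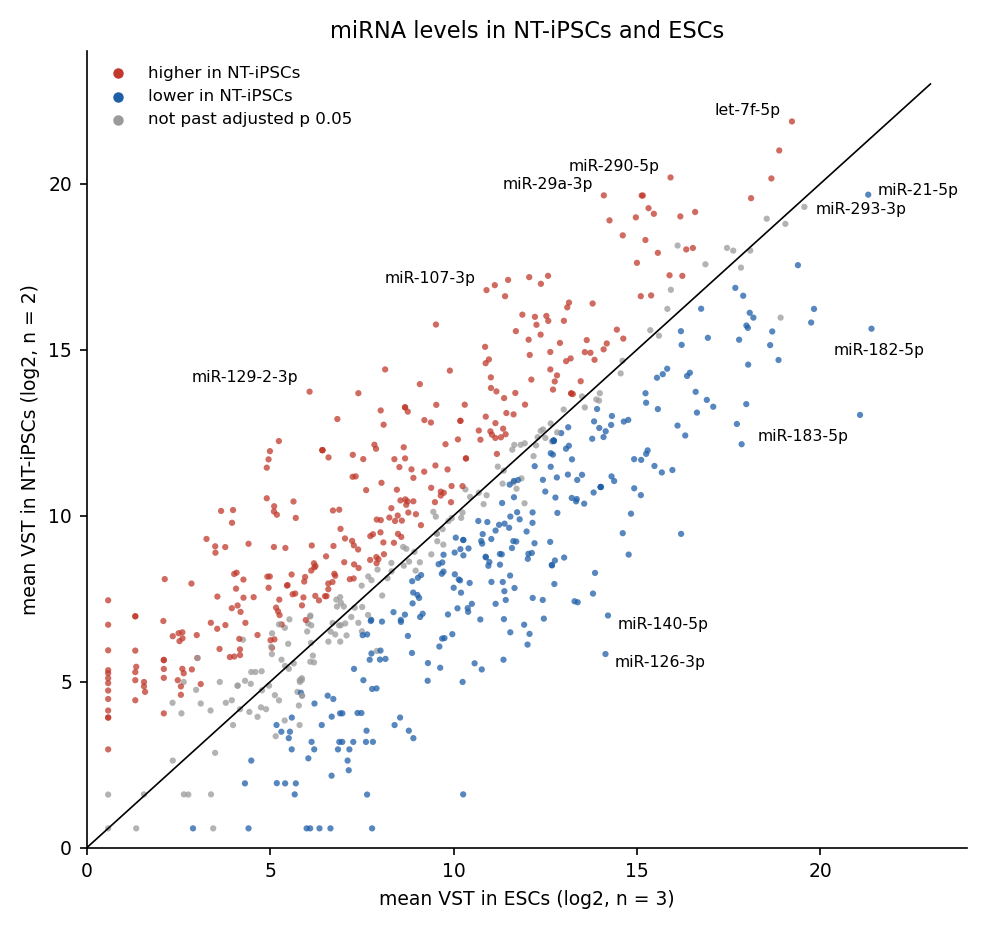
Mean VST (log2) of each of the tested miRNAs in ESCs (x axis, n = 3) and NT-iPSCs (y axis, n = 2), with the line of equal levels. Red points passed adjusted p 0.05 and were higher in NT-iPSCs, blue ones lower, grey ones did not pass. miR-183-5p and miR-182-5p, the third and the first miRNA of ESCs by share of reads, lie 8.05 and 5.76 below the line, and let-7f-5p and miR-29a-3p lie above it.

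The most abundant miRNAs changed places. The 10 highest miRNAs of ESCs held 51.9 to 52.4% of the miRNA reads of each ESC library, and the 10 highest of NT-iPSCs 51.1 and 48.3% of theirs, but just 3 miRNAs (miR-21-5p, miR-293-3p and let-7f-5p) were in both. In ESCs miR-182-5p led with 11.5% ± 0.452 of reads (SD, n = 3), followed by miR-21-5p, an miRNA of many growing and fibroblastic cells, with 10.8% ± 1.15 and miR-183-5p with 9.24% ± 0.600. In NT-iPSCs let-7f-5p led with 14.7% ± 1.19 (SD, n = 2), followed by let-7a-5p with 7.99% ± 0.134 and miR-290-5p with 4.55% ± 0.270. miR-199a-3p and miR-199b-3p, which share their mature sequence and nearly all their reads, held the same 3.13% and stand for 1 miRNA. miR-21-5p had VST values of 21.35, 21.47 and 21.09 in ESCs and 19.61 and 19.72 in NT-iPSCs, a difference of -1.64 ± 0.17 (SE).

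The miR-290 cluster, a marker of the pluripotent state, was high in both cell types and close to absent in MEFs. It lies on chromosome 7, is transcribed as 1 precursor in early embryos, and supplied 10.1, 10.6 and 12.1% of miRNA reads in the ESC libraries and 14.4 and 13.5% in the NT-iPSC libraries. The NT-iPSC libraries were the higher ones without overlap, and an exact two-sided permutation test gave p = 0.1, the smallest that 2 libraries against 3 allow. Of its 14 miRNAs 6 were higher in NT-iPSCs and 1 lower, with a median difference of 1.14. In MEFs no member had more than 26 reads in a library, and the spread among those few reads enters the common error. In a fit of only the 5 libraries, which called 574 of the 732 miRNAs (78.4%; 40.8% higher and 37.6% lower), 10 were higher and 2 lower.

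Within the cluster single arms moved far apart. miR-290-5p, whose strand carries no AAGUGCU seed, rose from VST 15.81, 15.80 and 16.13 in ESCs to 20.14 and 20.23 in NT-iPSCs, a difference of 4.27 ± 0.69 (SE, adjusted p = 1.63e-04) and 19.2-fold in normalized reads. miR-291a-3p, an ESC seed miRNA, went the other way, from 18.45, 18.59 and 18.85 to 15.30 and 14.97 (-3.49 ± 0.71, adjusted p = 8.78e-04). miR-294-3p, with the same seed, was at 16.16, 15.96 and 16.43 in ESCs and 19.26 and 18.76 in NT-iPSCs (2.83 ± 0.95, adjusted p = 0.0186), but its call was lost without NT-iPSC 51 or 52 (2.58 and 3.08). The groups did not overlap for any of these 3 miRNAs, although the first bases of miR-291a-3p and miR-294-3p are the same. miR-295-3p, also with this seed, was at 18.76, 19.24 and 19.14 against 18.96 and 18.62 and was not called (-0.26 ± 1.29).

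Of the less abundant 5p arms of the cluster, miR-294-5p was 4.22 ± 0.18 higher in NT-iPSCs, miR-291b-5p 3.04 ± 0.17 and miR-295-5p 2.86 ± 0.18, all without overlap, while miR-291a-5p and miR-293-5p were not called (0.70 ± 1.06 and 0.88 ± 0.82). miR-293-3p, the cluster member highest in ESCs, did not pass (-0.27 ± 0.64), and miR-290-3p reached 0.47 ± 0.21 with an adjusted p of 0.0619. miR-292-5p had 96433 to 117226 reads in ESCs and 15636 and 20710 in NT-iPSCs, and miR-292-3p 13966 to 16576 and 67148 and 97758. Neither passed in the fit of all libraries (-2.95 ± 1.47, adjusted p = 0.087, and 2.03 ± 1.11, adjusted p = 0.117), while their adjusted p was 1.6e-05 and 1.1e-04 in the fit of only the 5 libraries.

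A list of 8 miRNAs of the miR-290 and miR-302 clusters with the seed AAGUGCU or a related one, chosen by name, had 4 members higher and 2 lower with a median difference of 0.21. Of the 5 whose RefSeq sequence carries that seed itself, 2 were higher and 2 lower, with a median of -0.26. The list's share of reads was 3.72 to 4.87% in ESCs and 4.48 and 3.41% in NT-iPSCs. The miR-302 and miR-367 cluster on chromosome 3, typical of primed rather than naive pluripotency, was scarce in both, at 0.0190 to 0.0199% of reads in ESCs and 0.0322 and 0.0222% in NT-iPSCs. Of 9 tested members 5 were higher and 2 lower. miR-302d-3p had 19, 27 and 21 reads in ESCs and 403 and 255 in NT-iPSCs (3.44 ± 0.29), whereas miR-302b-3p, with the same seed, was at VST 11.66, 11.62 and 11.62 against 9.53 and 8.94 (-2.39 ± 0.77; -2.10 and not called without NT-iPSC 52). miR-302b-5p had 0 reads in the ESC libraries and 16 and 7 in NT-iPSCs, at least 2.94-fold higher against a floor of 3 reads per library.

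Members of the 3 miR-17 type clusters went both ways. All 6 tested miRNAs with the seed AAAGUGC were lower in NT-iPSCs, by 3.14 to 4.96, against a background of 36.5% of miRNAs called lower. miR-17-5p fell from VST 16.98, 17.18 and 17.08 in ESCs to 13.36 and 13.20 in NT-iPSCs (-3.80 ± 0.15, adjusted p = 1.72e-09), and miR-20a-5p from 17.61, 17.82 and 17.74 to 12.90 and 12.62 (-4.96 ± 0.25). miR-93-5p, the most abundant of the 6 in ESCs, fell by 3.14 ± 0.18 and miR-106b-5p by 3.42 ± 0.20, so members of all 3 clusters took part, on chromosomes 14, X and 5.

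From the same precursors, 2 miRNAs with the seed AUUGCAC were higher and 1 was not called. miR-92a-3p was at 15.19, 15.25 and 15.25 in ESCs and 17.99 and 18.62 in NT-iPSCs (3.07 ± 0.22). miR-25-3p was at 14.77, 15.02 and 15.12 against 19.19 and 18.78, a difference of 4.01 ± 0.20 and 16.2-fold in normalized reads. miR-363-3p, on the X chromosome, was at 14.32, 14.53 and 14.81 against 14.16 and 14.41 and was not called (-0.27 ± 0.19). In the miR-106b/25 cluster, in an intron of Mcm7, miR-93-5p (chr5:138165574-138165596) and miR-25-3p (chr5:138165332-138165353) lie next to each other on the minus strand and differed in opposite directions. By list, 3 of 12 tested miRNAs of the miR-17/92a cluster were higher and 8 lower, 5 and 4 of 10 in the cluster of miR-106a and miR-363, and 2 and 3 of 6 in the miR-106b/25 cluster.

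**Figure D2:**
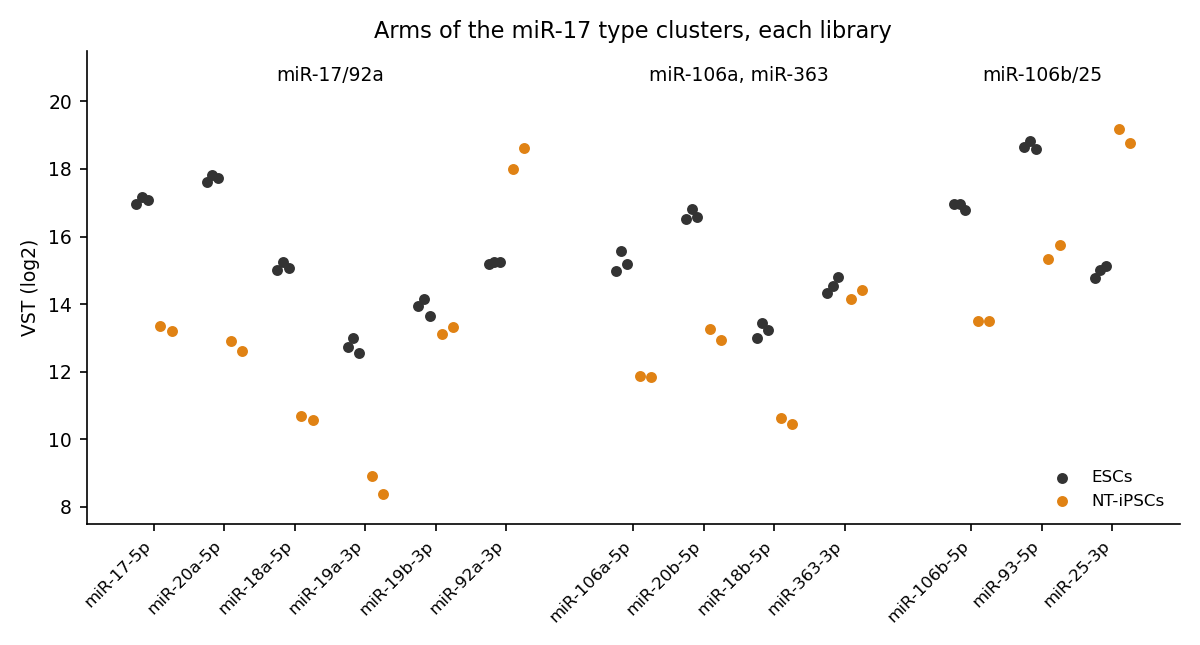
VST (log2) of the main arms of the miR-17/92a, miR-106a and miR-363, and miR-106b/25 clusters in each ESC library (black, n = 3) and each NT-iPSC library (orange, n = 2). The orange points lie below the black ones for miR-17-5p, miR-20a-5p, miR-106a-5p, miR-20b-5p, miR-106b-5p and miR-93-5p, and above them for miR-92a-3p and miR-25-3p.

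Other arms of these precursors also went both ways. miR-18a-5p fell by 4.49 ± 0.18 and miR-19a-3p by 4.11 ± 0.49, but miR-19b-3p by 0.70 ± 0.19, which was not called without NT-iPSC 51 (-0.59) or with upper quartile scaling (-0.46). Of the remaining arms, miR-19b-2-5p had 58, 72 and 90 reads in ESCs and 4 and 2 in NT-iPSCs (-4.70 ± 0.56), while miR-20a-3p and miR-17-3p fell by 4.49 ± 0.29 and 1.31 ± 0.22. miR-106a-3p had 1, 1 and 3 reads in ESCs and 211 and 148 in NT-iPSCs (6.03 ± 0.43), and miR-363-5p went from 1523, 2487 and 2002 reads to 25541 and 23762 (3.27 ± 0.22). Side by side with the other cell types, the mean VST of miR-17-5p was 17.08 in ESCs, 16.08 in MEFs, 13.34 in iPSCs and 14.05 in NT-ESCs, and that of miR-25-3p 14.97, 14.16, 19.06 and 19.47.

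The let-7 family made up a far greater share of the reads of NT-iPSCs. It held 8.07, 8.52 and 6.68% of miRNA reads in the ESC libraries and 33.7 and 33.5% in the NT-iPSC libraries, 4.33 times the mean of ESCs (exact two-sided permutation p = 0.1, the smallest possible). MEFs, which express let-7 as differentiated cells, held 18.3 to 21.8%, iPSCs 10.1 to 11.0% and NT-ESCs 26.9 to 27.0%. Of 19 tested members 13 were higher in NT-iPSCs and 2 lower, with a median difference of 1.77. All 9 miRNAs with the seed GAGGUAG, the 5p arms with miR-98-5p, were higher, by 1.41 to 3.83.

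let-7f-5p (chr13:48537889-48537910, minus strand) had 115657, 165205 and 122174 reads in ESCs and 1162416 and 1003561 in NT-iPSCs (2.65 ± 0.16, adjusted p = 3.37e-08). let-7a-5p rose by 2.12 ± 0.18, let-7e-5p by 2.56 ± 0.18 and let-7i-5p, which differed most, from VST 14.55, 14.94 and 14.35 to 18.12 and 18.77 (3.83 ± 0.26). The 3p arms had few reads and no common direction. let-7d-3p rose by 2.33 ± 0.41, and let-7g-3p had 5, 2 and 6 reads in ESCs and 0 in both NT-iPSC libraries. Leaving out the most abundant miRNA of each library lowered the gap in share between the groups from 25.8 to 13.4 percentage points. The partners that lie with let-7 genes, miR-99, miR-100 and miR-125, did not follow as a group: 5 of 9 were higher and 3 lower. miR-125b-5p rose by 1.51 ± 0.17, while miR-100-5p fell by 2.91 ± 0.14 and miR-99b-5p by 1.96 ± 0.20.

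The cluster of miR-183, miR-96 and miR-182 on chromosome 6 had the greatest fall in share among the 29 lists. It is known from sensory organs and epithelia. The sequences of its 5p arms are given with the seed in capitals.
miR-183-5p: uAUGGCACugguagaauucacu
miR-96-5p: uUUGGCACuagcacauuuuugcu
miR-182-5p: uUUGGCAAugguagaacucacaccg

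This cluster held 20.8, 20.1 and 22.0% of miRNA reads in the ESC libraries and 0.267 and 0.276% in the NT-iPSC libraries, 77.1 times less (exact two-sided permutation p = 0.1). miR-183-5p (chr6:30169711-30169732, minus strand) fell from VST 21.08, 21.03 and 21.13 to 13.05 and 13.02, a difference of -8.05 ± 0.13 and 264-fold in normalized reads (adjusted p = 3.26e-12). miR-182-5p (chr6:30165962-30165986) fell from 21.33, 21.43 and 21.42 to 15.63 and 15.64 (-5.76 ± 0.13). miR-96-5p, which lies between them and shares most of its seed with both, fell by 2.36 ± 0.19. The drop thus differed among arms of 1 precursor, and the 3p arms differed less again. miR-183-3p fell by 2.29 ± 0.18, miR-182-3p was not called (65, 99 and 99 reads against 114 and 89), and miR-96-3p was higher at 8, 8 and 7 reads against 38 and 33 (1.75 ± 0.66), a call that was lost without any 1 of the 5 libraries (1.66 to 1.84). In all, 4 of 6 were lower and 1 higher. The mean VST of miR-183-5p was 12.99 in iPSCs, 13.47 in NT-ESCs and 15.35 in MEFs.

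**Figure D3:**
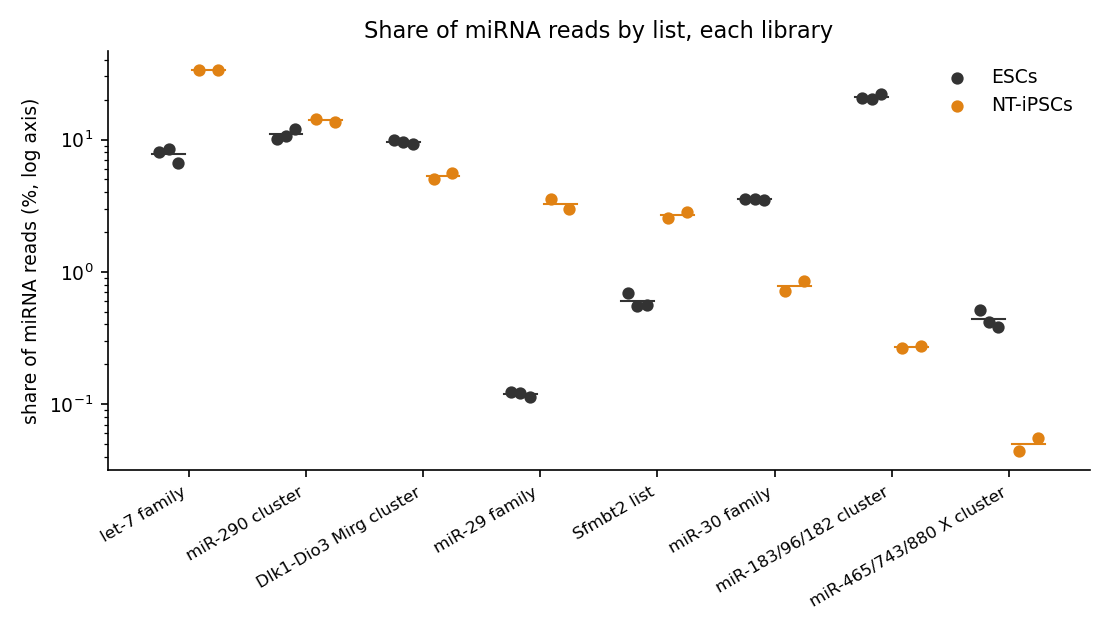
Share of miRNA reads (%, log axis) held by 8 lists in each ESC library (black, n = 3) and each NT-iPSC library (orange, n = 2), with a bar at each mean. The groups do not overlap for any of the 8 lists: NT-iPSCs are higher for the let-7, miR-290, miR-29 and Sfmbt2 lists, and lower for the others.

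Families linked to DNA methyltransferases by their reported targets were examined next. The miR-29 family, which represses Dnmt3a, Dnmt3b and collagens, had 3 of 6 tested miRNAs higher and 2 lower, with a median difference of 0.82. It held 0.123, 0.122 and 0.113% of reads in ESCs and 3.57 and 2.97% in NT-iPSCs. Its 3p arms share the seed AGCACCA and were all higher. miR-29a-3p rose from VST 14.06, 14.25 and 13.98 to 19.79 and 19.50 (5.55 ± 0.17, 46.9-fold in normalized reads, adjusted p = 3.36e-10), and miR-29c-3p from 24, 29 and 20 reads to 2353 and 1997 (6.08 ± 0.21). miR-29b-3p rose by 1.58 ± 0.23. The 5p arms miR-29a-5p and miR-29b-1-5p were lower, by 1.10 ± 0.21 and 3.15 ± 0.23.

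The miR-148 and miR-152 family, which represses Dnmt1, had 4 of 6 members lower and 0 higher, with a median difference of -3.83. miR-148a-3p fell from 17.82, 18.12 and 18.00 to 13.39 and 13.33 (-4.62 ± 0.15) and miR-148b-3p by 3.39 ± 0.20. miR-152-3p, which has the same seed CAGUGCA, was at 15.55, 15.71 and 15.53 in ESCs and 15.85 and 14.99 in NT-iPSCs and was not called (-0.18 ± 0.29).
miR-29a-3p: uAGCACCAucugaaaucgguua
miR-29c-3p: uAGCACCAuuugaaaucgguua
miR-148a-3p: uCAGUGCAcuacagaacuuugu
miR-152-3p: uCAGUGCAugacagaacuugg

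The Dlk1-Dio3 region on chromosome 12 carries an imprinted cluster of miRNAs expressed from the maternal chromosome, and the loss of its transcripts is a known defect of some iPSC lines. Its miRNAs were expressed in NT-iPSCs. On the Mirg side, 38 of 68 tested miRNAs were higher and 22 lower, with a median difference of 1.02, although the share of reads was lower, at 5.03 and 5.60% against 9.30 to 10.0% in ESCs. miR-379-5p, the first hairpin of this side and its highest miRNA in ESCs, fell by 3.93 ± 0.23 and miR-541-5p by 1.84 ± 0.19. miR-381-3p fell from VST 16.20 ± 0.08 (SD, n = 3) to 9.45 ± 0.31 (SD, n = 2), a difference of -6.75 ± 0.32.

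Others of the same cluster were far higher in NT-iPSCs. miR-329-3p was at 7.63, 8.33 and 8.45 in ESCs and 14.42 and 14.39 in NT-iPSCs (6.27 ± 0.25), miR-495-3p differed by 6.24 ± 0.24 and miR-543-3p by 5.82 ± 0.23. On the Rtl1 and Rian side 12 of 30 were higher and 8 lower, with a median difference of 0.52. miR-433-3p rose by 4.65 ± 0.16 and miR-665-3p by 4.88 ± 0.20, miR-370-3p fell by 5.14 ± 0.27, and miR-127-3p did not pass (0.61 ± 0.29). The share of this side was 2.55 and 2.65% in NT-iPSCs and 1.49 to 1.57% in ESCs.

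The miR-297, miR-466, miR-467 and miR-669 families are repeated rodent hairpins, most of them in an intron of Sfmbt2, a gene paternally expressed in placenta. This list, chosen by name, held 0.690, 0.550 and 0.562% of reads in ESCs and 2.56 and 2.81% in NT-iPSCs. GENCODE vM21 places 67 of its miRNAs within Sfmbt2 and 8 only elsewhere, and 2 matched no gene name. Those within the gene held 0.653, 0.525 and 0.534% in ESCs and 2.54 and 2.79% in NT-iPSCs, and of 65 tested 35 were higher and 18 lower. Of the 71 tested in the whole list, 37 were higher and 19 lower, with a median difference of 0.86. miR-669c-5p, its highest member, rose by 3.63 ± 0.19, and miR-467a-3p and miR-467d-3p, which share most of their reads, by 4.58 ± 0.41. miR-297a-3p rose by 5.55 ± 0.26, but miR-297a-5p fell by 2.47 ± 0.18. Copies with identical values (21 miRNAs of the table share their values with another) are not separate evidence. iPSCs held 7.54 to 10.1% and NT-ESCs 4.56 to 5.24% of reads in this list.

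The rodent X-linked cluster of miR-465, miR-743, miR-880 and relatives, known from testis and early germ cells, went down. Of 27 tested miRNAs 16 were lower and 2 higher, with a median difference of -2.11, and its share fell from 0.383 to 0.517% in ESCs to 0.0441 and 0.0556% in NT-iPSCs. miR-871-3p differed by -6.15 ± 0.53, miR-741-3p by -5.99 ± 0.39 and miR-743a-3p by -5.06 ± 0.34. The reads of miR-465a-3p, miR-465b-3p and miR-465c-3p cannot be told apart, and all of them differed by -3.15 ± 0.31.

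The miR-34 and miR-449 family acts in ciliated cells, and p53 induces its miR-34 genes. Of its 8 tested members 6 were higher and 0 lower, with a median difference of 3.41. miR-449a-5p had 13, 8 and 10 reads in ESCs and 429 and 349 in NT-iPSCs (4.79 ± 0.28) and miR-34b-5p 26, 41 and 32 against 1197 and 880 (4.58 ± 0.23). The abundant members miR-34a-5p and miR-34c-5p did not pass (0.31 ± 0.25 and -0.37 ± 0.20), and the family's share of reads was 0.785 and 0.694% against 0.856, 0.997 and 1.14% in ESCs (exact two-sided permutation p = 0.2). The miR-181 family, which is known from lymphocyte development, had 7 of 9 higher and 1 lower, with miR-181d-5p at 2.35 ± 0.25 and miR-181b-5p at 2.76 ± 0.18.

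The miR-30 family, which is high in differentiated cells, had 9 of 11 lower and 1 higher. Its share fell from 3.57, 3.58 and 3.48% to 0.715 and 0.855%, and miR-30e-5p differed by -3.48 ± 0.15 and miR-30d-5p by -2.26 ± 0.13. The miR-200 family, which holds cells in the epithelial state by repressing Zeb1 and Zeb2, had 7 of 9 lower and 1 higher. miR-200c-3p fell from 16.25, 16.01 and 15.64 to 11.07 and 11.68 (-4.59 ± 0.28) and miR-141-3p by 4.63 ± 0.46, both from the cluster on chromosome 6. From the other cluster, on chromosome 4, miR-200b-3p fell by 1.56 ± 0.25 and miR-429-3p by 1.46 ± 0.18, and miR-200a-3p was 0.58 ± 0.16 higher. miR-200a-3p was not called without NT-iPSC 51 (0.47).

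**Figure D4:**
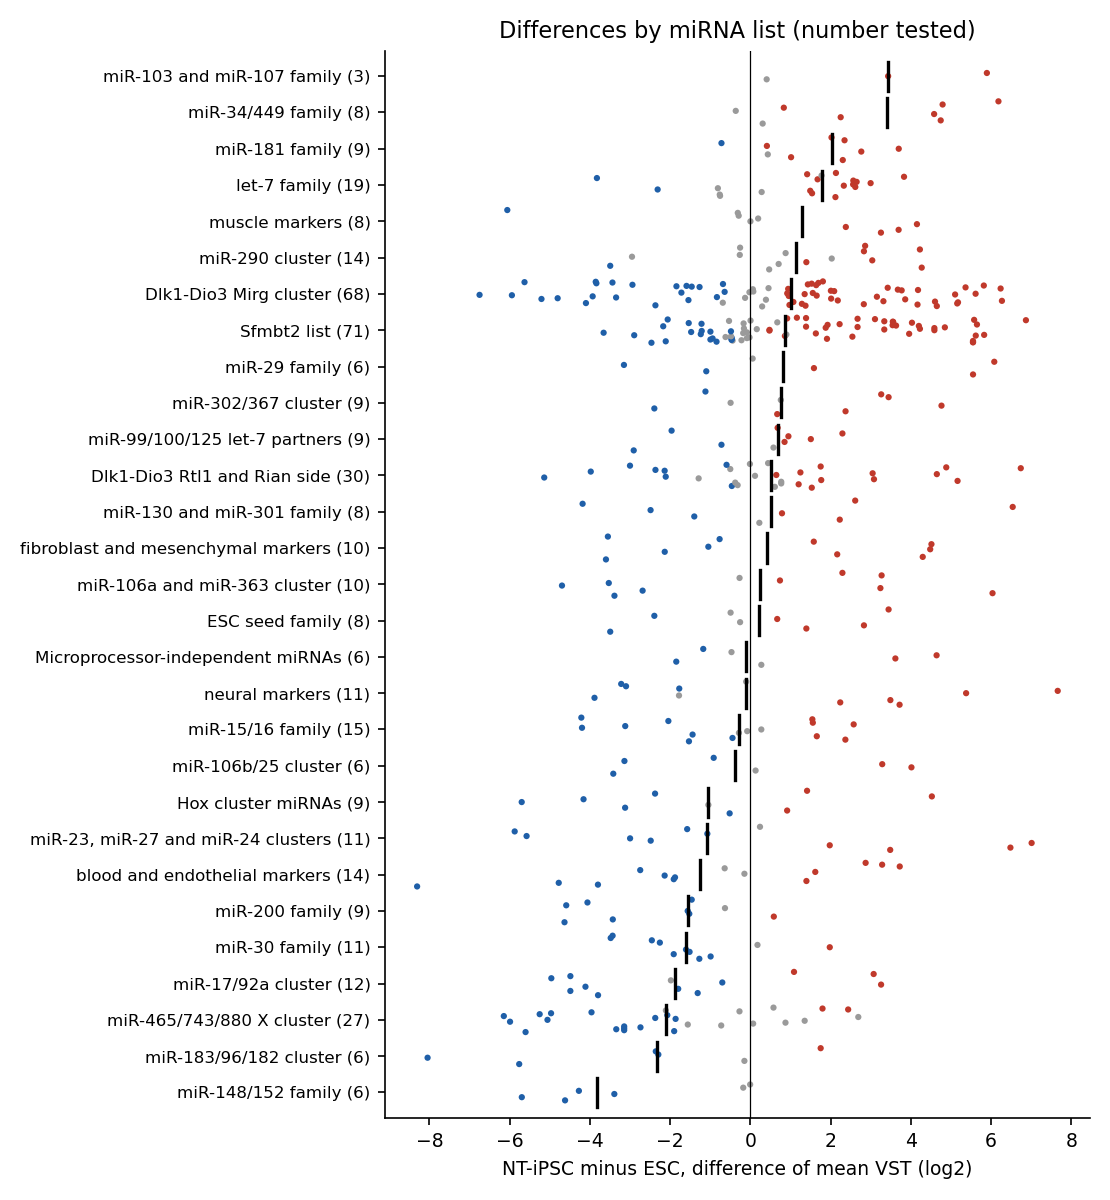
Difference of mean VST (log2, NT-iPSCs minus ESCs) of each tested miRNA in 29 lists, with the number tested in brackets and a black bar at the list's median. Red points were higher and blue points lower at adjusted p 0.05, and grey points did not pass. The miR-148 and miR-152 list has its median at -3.83 and the miR-34 and miR-449 list at 3.41, and most lists hold points on both sides of 0.

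Lists with mixed directions were the miR-15/16 family (5 of 15 higher, 7 lower), the clusters of miR-23, miR-27 and miR-24 (4 of 11 higher, 6 lower) and the miR-130 and miR-301 family (4 of 8 higher, 3 lower). In the clusters of miR-23, miR-27 and miR-24 the arms of neighbouring hairpins parted: miR-23a-3p rose by 3.48 ± 0.17, miR-24-3p fell by 2.48 ± 0.19 and miR-27a-3p by 1.07 ± 0.31, which was not called without NT-iPSC 51 (-0.55). Of miRNAs made without the Microprocessor 2 of 6 were higher and 2 lower. miR-320-3p, the most abundant of them, had 3614, 4557 and 4581 reads in ESCs and 144944 and 129401 in NT-iPSCs (4.64 ± 0.24).

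Markers of other cell types were examined because, per the labels, both cell types were grown on irradiated feeder MEFs. Of 10 fibroblast and mesenchymal miRNAs 5 were higher and 5 lower. miR-143-3p fell from VST 19.88, 19.91 and 19.69 in ESCs to 15.99 and 16.46 in NT-iPSCs (-3.60 ± 0.24), and miR-199a-3p rose from 14.97, 15.22 and 15.29 to 19.77 and 19.51 (4.48 ± 0.21). With miR-199a-3p and miR-199b-3p counted once, 4 of 9 were higher and 5 lower, and the summed share was 4.31, 4.21 and 3.88% in ESCs, 3.89 and 3.42% in NT-iPSCs and 5.89 to 9.0% in MEFs. The ESC and NT-iPSC libraries thus overlapped. Summed over all 10, which counts those reads again, the share was 4.03 to 4.42% in ESCs and 6.18 and 7.14% in NT-iPSCs. None of these 10 was at 0 in all libraries of either group. The Hox cluster miRNAs had 3 of 9 higher and 5 lower, with differences from -5.70 to 4.52. miR-196a-5p fell by 5.70 ± 0.21 and miR-10b-5p by 3.12 ± 0.18, and the list's share from 1.40 to 1.83% to 0.290 and 0.361%. What part feeder RNA has in these levels was not tested.

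Of 11 neural miRNAs 5 were higher and 4 lower. miR-129-2-3p had the highest positive difference among the 732 tested, from 13, 15 and 14 reads in ESCs to 3563 and 4134 in NT-iPSCs (7.66 ± 0.22, 212-fold in normalized reads), and miR-124-3p had 363, 383 and 482 reads against 3905 and 12386 (3.72 ± 0.41), while miR-9-5p fell by 3.22 ± 0.16. Of 8 muscle miRNAs 4 were higher and 1 lower, with differences from -6.06 to 4.15, and miR-1a-3p rose by 3.25 ± 0.19. This list held 10.7 to 12.7% of reads in MEFs, 0.0746 to 0.0883% in ESCs and 0.219 and 0.206% in NT-iPSCs. Of 14 blood and endothelial miRNAs 5 were higher and 7 lower. miR-126-3p, the endothelial miRNA, had 4357, 4200 and 3278 reads in ESCs and 11 and 21 in NT-iPSCs (-8.31 ± 0.49, 320-fold in normalized reads). Its other arm, miR-126-5p, fell by 3.80 ± 0.21.

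By p-value, the leading miRNAs with a mean VST over 10 and no overlap were miR-183-5p, miR-182-5p, miR-140-5p, miR-28-3p, miR-148a-3p, miR-24-2-5p, miR-300-3p, miR-196a-5p, miR-17-5p and miR-151-3p among those lower in NT-iPSCs. Among those higher they were miR-29a-3p, miR-433-3p, miR-107-3p, miR-495-3p, miR-299-5p, miR-543-3p, miR-329-3p, miR-665-3p, miR-294-5p and miR-674-5p. miR-140-5p, known from cartilage, was at 14.18, 14.32 and 14.14 in ESCs and 6.77 and 7.22 in NT-iPSCs (-7.21 ± 0.17), and miR-28-3p differed by -4.37 ± 0.13. miR-674-5p differed by 4.47 ± 0.19.

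Some miRNAs that differ by a single base moved apart. Among tested miRNAs with a sequence there were 18 pairs of equal length that differ at 1 position, and the differences of the partners lay at least 1 apart in 10 pairs and at least 3 apart in 4. Positions are counted from 1 at the 5′ end, the base of the first miRNA is written first, and the base that differs is in capitals below.
miR-103-3p: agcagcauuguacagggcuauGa
miR-107-3p: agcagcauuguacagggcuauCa
miR-100-5p: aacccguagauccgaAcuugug
miR-99a-5p: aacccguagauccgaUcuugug
miR-19a-3p: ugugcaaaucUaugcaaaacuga
miR-19b-3p: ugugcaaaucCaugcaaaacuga

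miR-107-3p, which differs from miR-103-3p by G22C, had the widest gap. These miRNAs lie in introns of pantothenate kinase genes and are linked to acetyl-CoA and insulin signalling. miR-103-3p had 74060, 86303 and 87476 reads in ESCs and 152491 and 131827 in NT-iPSCs and was not called (0.41 ± 0.19, adjusted p = 0.067). miR-107-3p had 337, 440 and 475 reads against 29494 and 34611 (5.89 ± 0.21, adjusted p = 1.08e-09). Their ratio in normalized reads went from 198 in ESCs to 4.43 in NT-iPSCs. For miR-100-5p and miR-99a-5p (A16U) the ratio went from 10.5 to 0.727, and for miR-19a-3p and miR-19b-3p (U11C) from 0.450 to 0.0427. At 1 base of difference, counting of partners depends on how reads were assigned, which is not given in the sources used here.

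Pairs that moved together included let-7b-5p and let-7c-5p (G17A, gap 0.046), miR-106a-5p and miR-17-5p (A10U, 0.41) and miR-29a-3p and miR-29c-3p (C10U, 0.53). The pair miR-204-5p and miR-211-5p (A17U) had a gap of 4.26, but miR-204-5p rests on 0, 1 and 0 reads in ESCs and 6 and 17 in NT-iPSCs. miR-30a-5p and miR-30e-5p (C13U) fell by 1.27 and 3.48.

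The arm balance differed between NT-iPSCs and ESCs at 193 of 263 hairpins (73.4%), toward the 5p arm in NT-iPSCs at 84 (31.9%) and toward the 3p arm at 109 (41.4%), by limma on the 5p minus 3p VST. The arm with more reads was not the same in both cell types at 62 hairpins, of which 57 were called. At 100 hairpins both arms were called in the same direction, at 27 the 5p arm was higher and the 3p arm lower, and at 40 the reverse. With at least 100 reads on both arms in each of the 5 libraries, 44 of 58 hairpins were called.

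**Figure D5:**
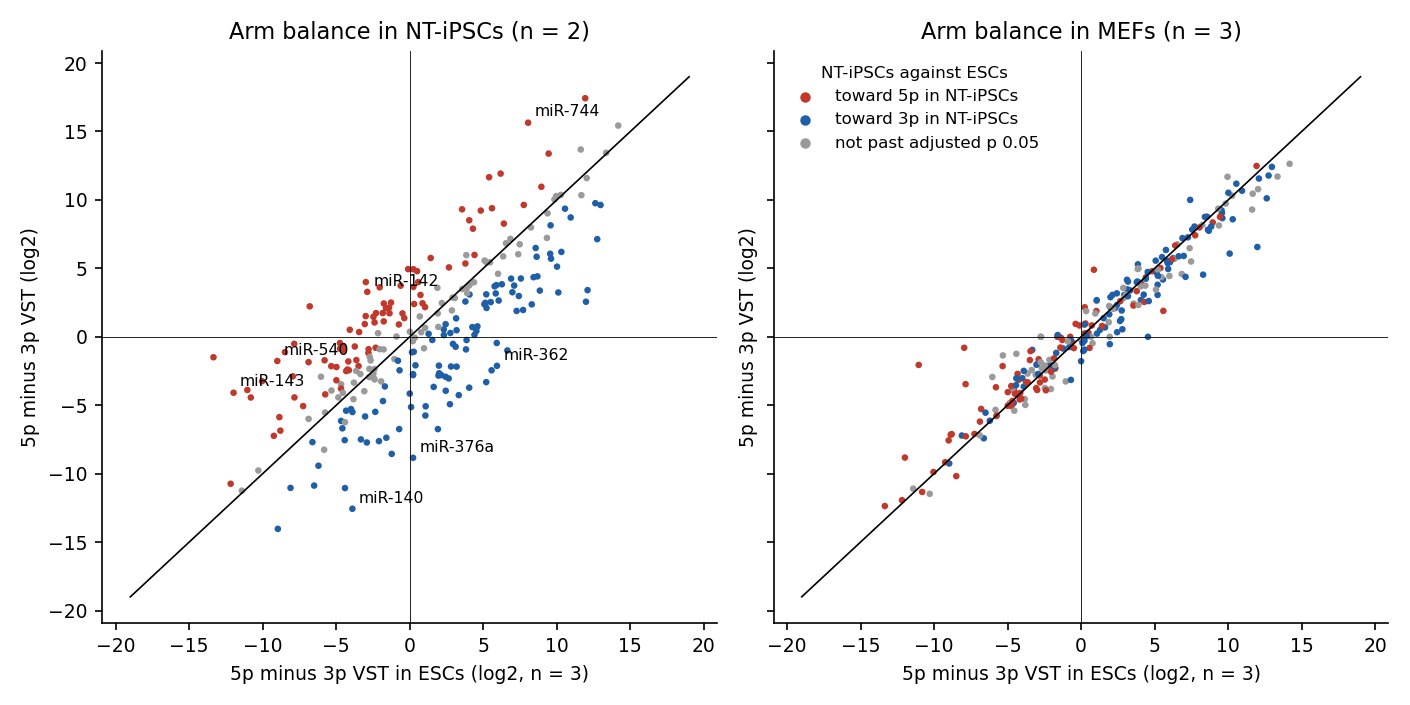
Arm balance (VST of the 5p arm minus VST of the 3p arm, log2) of 263 hairpins in ESCs (x axes, n = 3) against NT-iPSCs (left, n = 2) and MEFs (right, n = 3), with the line of equal balance. Colours mark hairpins whose balance differed between NT-iPSCs and ESCs at adjusted p 0.05, toward 5p (red) or 3p (blue). The points spread off the line on the left, where the median absolute difference from ESCs is 2.71, and stay close to it on the right, where it is 0.68.

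The hairpins that led toward the 3p arm were miR-140, miR-362, miR-297a, miR-376a and miR-380. The balance of miR-140 was -3.90, -3.73 and -4.07 in ESCs and -12.81 and -12.32 in NT-iPSCs, and the 5p arm made up 6.30% of the hairpin's reads in ESCs and 0.0164% in NT-iPSCs. The balance of miR-362 went from 6.15, 5.97 and 5.67 to -2.14 and -2.10, so that its main arm was the 5p arm in ESCs (98.5% of reads) and the 3p arm in NT-iPSCs (18.5% from 5p). For miR-376a it went from 0.16, 0.35 and 0.17 to -8.57 and -9.11 and for miR-380 from 3.36, 3.24 and 3.40 to -4.12 and -4.41.
miR-362-5p: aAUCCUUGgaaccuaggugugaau
miR-362-3p: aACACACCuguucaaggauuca
miR-376a-5p: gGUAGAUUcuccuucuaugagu
miR-376a-3p: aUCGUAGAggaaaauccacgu

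Toward the 5p arm led miR-540, miR-503, miR-142, miR-744 and miR-143. The balance of miR-540 went from -9.00, -9.25 and -8.77 to -1.72 and -1.82 and that of miR-142, a hairpin of blood cells, from -2.91, -2.99 and -2.76 to 2.91 and 3.66, with the 5p arm at 11.9% of reads in ESCs and 90.5% in NT-iPSCs. miR-744-3p had 59, 39 and 45 reads in ESCs and 0 in both NT-iPSC libraries, at least 20.8-fold higher in ESCs against a floor of 3 reads per library.

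In the same measure few hairpins set NT-iPSCs apart from the other reprogrammed cells. Against iPSCs 0 of 263 hairpins were called (0.0%) by limma, with 29 at an unadjusted p under 0.05 and a median absolute difference of 0.38. Against NT-ESCs 1 was called (0.38%), with 13 at an unadjusted p under 0.05 and a median of 0.33. MEFs differed from ESCs at 62 hairpins (23.6%), 31 toward each arm (11.8%). The mean balance of miR-140 was -3.64 in MEFs, -13.61 in iPSCs and -13.58 in NT-ESCs, and that of miR-362 was 5.53, -1.68 and -1.83. These comparisons share the ESC or the NT-iPSC libraries and are given side by side.

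No abundant miRNA was shown to be equal within narrow limits. Of 70 miRNAs with a mean VST over 15 in the 5 libraries 56 were called, and for 0 of the 70 did the 95% confidence interval of the difference lie within 0.5 on either side of 0. miRNAs that were not called, such as miR-293-3p and miR-295-3p, are therefore not shown to be at the same level in both.

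NT-iPSCs differed less from the other reprogrammed cells than from ESCs in the number of calls. Against iPSCs, from which their nuclei came, 194 of 732 miRNAs were called (26.5%), 98 higher (13.4%) and 96 lower (13.1%) in NT-iPSCs, and against NT-ESCs 94 (12.8%), 41 higher (5.6%) and 53 lower (7.24%). The count against iPSCs was 107 in a fit of only those libraries. The count against NT-ESCs rested on single libraries: it was 39 and 43 without NT-iPSC 51 and 52, 8 and 13 without NT-ESC 71 and 72, and 53 without ESC 3. Of miRNAs past the threshold against both iPSCs and NT-ESCs in the same direction, 7 were higher and 40 lower in NT-iPSCs. Among the 7, 1 had at most 3 reads in every library of the reprogrammed types.

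Those with the smallest p were miR-22-3p, miR-194-2-3p and miR-132-3p among the higher and miR-669a-3p, miR-669o-3p and miR-467a-5p among the lower. They were chosen by these contrasts, so their values are a description. miR-194-2-3p had 1 read in each NT-iPSC library and passed the filter on low reads through ESCs and MEFs, so no difference between the reprogrammed types is given for it. miR-22-3p was at VST 14.96 and 14.89 in NT-iPSCs and at means of 14.18 in iPSCs, 13.93 in NT-ESCs and 13.58 in ESCs. miR-132-3p, a neuronal activity miRNA, was at 8.91 and 9.41 against means of 7.64, 8.14 and 10.78 in iPSCs, NT-ESCs and ESCs. miR-669a-3p and miR-669o-3p have the same values, 12.95 and 12.77 against means of 14.29, 14.01 and 10.19. miR-467a-5p was at 13.66 and 13.71 against 15.55, 14.83 and 13.21. Of the 40 lower miRNAs, 30 belong to the Sfmbt2 list, which holds 71 of the 732 tested. This count, and the next with copies counted once, need calls against NT-ESCs, which rested on single libraries. With copies counted once (reads within 10% of each other in every library), 21 of 31 came from hairpins within Sfmbt2, which make up 54 of the 714 tested.

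miRNAs at 0 reads in all libraries of a group were few. Among the 860, 33 had 0 reads in every ESC library and 32 in every NT-iPSC library. Such a miRNA was among the 860 only through its reads in the other group. Those at 0 in ESCs needed reads in both NT-iPSC libraries, whereas those at 0 in NT-iPSCs did not need reads in every ESC library. The bar was thus uneven, and the counts of 33 and 32 do not compare the groups. Against a floor of 3 reads per library, miR-669l-3p (0 reads in ESCs, 47 and 50 in NT-iPSCs) was at least 12.4-fold higher in NT-iPSCs, miR-384-3p at least 7.55-fold, and miR-499-3p (20, 16 and 29 reads in ESCs, 0 in NT-iPSCs) at least 9.45-fold higher in ESCs. These bounds hold for read sampling alone, since PCR copies of 1 molecule are counted as separate reads.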

How the data were processed

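Small RNA of 12 libraries was sequenced. The authors cleaned and annotated the reads, normalized miRNA reads with DESeq and deposited a variance stabilized value on a log2 scale for each miRNA and library. The submitters' processing notes name the build mm8. The aligner and the miRBase release are not given in the sources used here. Inverting the transformation gave whole reads for 100% of nonzero values (within 0.05 read; largest deviation 0.00384). These reads, with 4863365 to 7499416 per library, served filters, floors, shares and other scalings. As the deposited log2 values are no counts, all 12 libraries entered 1 limma fit (3.58.1, R 4.3.3) with group means, moderated variances that follow the mean, and adjusted p-values (Benjamini-Hochberg, 0.05). It was tested on simulated data. Exact two-sided permutation tests compared shares. Python 3.11.15, numpy 2.4.6, pandas 2.3.3 and scipy 1.17.1 were used.

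The miRNAs, lists and tests were chosen with earlier results of these data known. Named were list members, 10 miRNAs per direction ranked by p (mean VST over 10, no overlap), 5 hairpins and 3 miRNAs apart from both iPSCs and NT-ESCs per direction, the 10 most abundant per group, and pairs that differ by 1 base. Copies, 18 miRNAs with at least 100 reads that lay within 10% of another in every library, were left out in an added alternative for shares. The miRNAs at 0 reads were picked out after their values were seen. Sequences are from RefSeq for GRCm38.p6, 28 matched through a synonym. As 573 of the 732 tested miRNAs had one, under 80%, a comparison of base composition was void and is not given.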

Additional observations from a re-analysis of the deposited data

Results flagged for a closer look

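The difference from ESCs in NT-iPSCs was unlike that in both iPSCs and NT-ESCs for 7 miRNAs higher and 40 lower in NT-iPSCs. Given here are 5 of those with the smallest p per direction, without miR-194-2-3p, which had 1 read in each NT-iPSC library. They were picked for passing the contrasts with both of these types in the same limma fit, so the values describe the choice and are no separate test of it. miR-22-3p differed by 0.75 ± 0.15 (SE) from iPSCs and by 1.0 ± 0.15 from NT-ESCs, and was higher in both NT-iPSC libraries. miR-132-3p differed by 1.52 ± 0.21 and 1.02 ± 0.21. miR-669a-3p and miR-669o-3p, which have identical values, differed by -1.43 ± 0.16 and -1.15 ± 0.16. miR-467a-5p differed by -1.87 ± 0.18 and -1.15 ± 0.18. The contrast with NT-ESCs rested on single libraries, since its 94 calls fell to 8 without NT-ESC 71 and to 13 without NT-ESC 72. Against NT-ESCs the adjusted p of miR-132-3p was then 0.0908 and 0.0783 by limma, and 0.0795 without NT-iPSC 52. That of miR-22-3p was 0.05 without NT-ESC 71, and that of miR-467a-5p 0.0527 without NT-ESC 72. The adjusted p of miR-669a-3p was at most 0.0346 without any 1 of these NT-ESC and NT-iPSC libraries.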

How the results depend on the processing

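No paired analysis was possible because the groups share no replicate numbers. The number of miRNAs called between NT-iPSCs and ESCs was 568 of 732 tested. It stayed within 1.5 times that value under every alternative run (393 to 608). The numbers tested differed at the ends of this range: 393 of 454 with a filter at 100 reads, 608 of 860 with no filter. The share called was thus higher at the low end and lower at the high end. With 1 ESC library left out, the count was 536 to 547. The count against iPSCs, 194, was 107 in a fit of those groups alone and 132 to 204 with 1 library left out. The count against NT-ESCs, 94, was 172 with voom on the recovered reads, 47 in a fit of those groups alone and 8 to 130 with 1 library left out, the lowest without NT-ESC 71. For iPSCs and NT-ESCs, the settings that leave out a library of ESCs, iPSCs, NT-ESCs or MEFs were added once the data had been seen. The arm balance count, 193, was 184 to 191 with 1 library left out and 44 of 58 hairpins with at least 100 reads on both arms. With TMM-type scaling the 95% confidence interval of 1 abundant miRNA lay within 0.5 on either side of 0, against 0 miRNAs as reported.

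Without the most abundant miRNA of each library, the gap in share (percentage points) was 3.95 for the miR-290 cluster, 13.4 for let-7, -18.9 for the miR-183 cluster, 2.47 for the Sfmbt2 list, -3.09 for miR-30 and 3.7 for miR-29, because the miRNA left out belongs to a list or enlarges all other shares. With 1 library left out the gap was 2.54 to 3.59 for the miR-290 cluster, 25.3 to 26.2 for let-7, -21.1 to -20.2 for the miR-183 cluster, -4.61 to -4.05 for the Mirg list, 1.96 to 2.21 for the Sfmbt2 list, -2.83 to -2.69 for miR-30, 2.85 to 3.45 for miR-29 and -0.418 to -0.351 for the X cluster. With miRNAs that share their reads counted once, chosen after seeing the data, the gap was 27.0 for let-7 and -0.265 for the X cluster, and all 8 gaps kept their direction. The difference of miR-155-3p, -0.64 and not called, reversed to 1.63 without NT-iPSC 51 and was -2.92 without NT-iPSC 52, and the cause was not tested. Of 434 named miRNAs, 400 kept direction and call with upper quartile scaling, 415 with TMM-type scaling and 379 without NT-iPSC 51. With 2 libraries against 3, no share can pass 0.05, and groups of 1 line each leave strain and line inseparable from cell type.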
